A study of Mus musculus with 24 samples.

Results

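The genes of sarcoplasmic reticulum calcium handling measured here were Atp2a2, Pln, Slc8a1, Ryr2, Trdn, Casq2, Casq1, Jph2, Hrc and Srl. They were taken as the probes that the array annotation names by these symbols. All 10 were on the array, with 14 probes, and all 10 were among the 12465 genes tested. Right ventricles of mice were compared after sham surgery (n = 10) and after PSPI, surgery that makes a pressure and volume overload. There were 5 PSPI samples 1 month after the operation, 5 after 2 months and 4 after 3 months. Total RNA of each sample was hybridised to a 1-colour Agilent array, 24 arrays in all. The strain is labelled "M/FVB/10-12" for every sample, which gives no further genotype, and no month is given for the shams, so every month was set against all 10. Nothing in the labels ties each sample to its own animal, and the p-values reflect only how much these arrays vary, which may be technical.

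In a heart muscle cell each beat begins with calcium that enters through voltage-gated channels and opens ryanodine receptors, the release channels of the sarcoplasmic reticulum. Triadin and junctophilin shape the junction where release happens, and calsequestrin binds the stored calcium inside the reticulum. Relaxation follows when the pump SERCA returns calcium to the store under the restraint of phospholamban, and when the sodium-calcium exchanger moves calcium out of the cell. Lower pump and release gene expression is a known feature of failing ventricles.

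Levels are log2 processed signals relative to the 75th percentile of detected probes on the array, so a level of 0 equals that percentile. Levels of different probes are not compared with each other, because probes differ in how strongly they bind. A gene was called changed where the limma adjusted p (Benjamini-Hochberg over all 12465 genes) was under 0.05, and ± after a change is its standard error. Of the 14 member probes, 12 were well above background on all 24 arrays and none was saturated. The exceptions were the second probe of Slc8a1 (23 arrays) and the far 3' probe of Trdn (20 arrays). RNA of a whole ventricle was measured, so fewer cells of a type and less RNA per cell cannot be told apart.

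Some features of the arrays touch the results below. In 8 of 276 pairs, arrays of 1 group nearly coincided: Sham 3, 4 and 10, Sham 1 and 5, Sham 7 and 9, samples 1 and 5 of month 1 and of month 2, and samples 2 and 3 of month 3. The labels name no repeated sample, so all arrays were kept, and called results are also given with such arrays averaged to 17 samples (6, 4, 4 and 3). The arrays lay on 3 slides, and slide 1 held 7 of the 10 shams and no sample of months 2 and 3. Slide 2 carried no sham. Its arrays were 3 from month 1, 4 from month 2 and 1 from month 3. A difference between month 2 and sham is therefore hard to tell apart from slide. The slow myosin gene Myh7 stood at 1.62 to 2.52 on 9 arrays (6 shams and 3 of month 1) and at 4.67 to 5.91 on the other 15. All 8 ventricular cardiomyocyte markers were well above background on every array, and none of the 8 passed the test at any month against sham. Their median change was 0.17 at month 1, 0.10 at month 2 and 0.56 at month 3, where they ranged from -0.27 to 0.93. Their summed level ranged from 7.95 to 9.28 in sham and from 8.37 to 9.76 at month 3.

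The probes of Trdn and Casq1 are shown because the falls of more than 1 log2 unit at month 3 were measured with them. Coordinates are mm9, as the array files give them, and sequences read 5′ to 3′ along the transcript, in lower case. The shared probe of Trdn (chr10:32915796-32915855, plus strand) lies in transcripts NM_029726 and ENSMUST00000050626. The probe that stands for the gene (chr10:32919981-32920040, plus strand) lies in ENSMUST00000050626 and was not listed for NM_029726. The Casq1 probe (chr1:174140602-174142105, minus strand) covers 60 bases over a span of 1504, so it bridges an exon junction.
Trdn, shared probe: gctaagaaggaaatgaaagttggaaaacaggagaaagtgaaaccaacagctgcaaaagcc
Trdn, probe used for the gene: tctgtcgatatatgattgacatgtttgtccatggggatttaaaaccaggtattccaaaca
Casq1: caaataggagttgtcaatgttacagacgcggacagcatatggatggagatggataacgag
The levels of these Trdn probes changed unequally, as described with triadin below.

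Phospholamban, the release channel, triadin and both calsequestrins were lower at month 3, and junctophilin 2 was higher at month 2 and within its sham range at month 3. Over all genes, too, the share called grew from month to month. At month 1 none of the 10 genes passed the test, beside 0 of all 12465 genes, or 0%, while 1512 genes had an unadjusted p under 0.05. At month 2 Jph2 was higher and Trdn lower, 2 of 10 members beside 14.5% of all genes (6.39% higher and 8.08% lower). At month 3 Pln, Ryr2, Trdn, Casq2 and Casq1 were lower and none was higher, 5 of 10 members beside 38.9% of all genes (17.2% higher and 21.7% lower). Of the genes called at month 3, 44.3% were higher; this share ran from 22.5% with the 75th percentile taken over all probes to 65.7% in the deposited table, which calls 5 members, 4 lower and Slc8a1 higher. Over the 3 months weighted equally, Jph2 was higher and Trdn lower, 2 of 10 beside 24.4% of all genes (10.8% higher and 13.6% lower). The median change of the 10 members was 0.07 at month 1, -0.044 at month 2 and -0.26 at month 3, beside 0.011, -0.019 and -0.038 over all genes tested. Averaging near-coincident arrays left 0, 0 and 4 members called at months 1, 2 and 3, and 0 over all months. Of all 12465 genes it left 0, 7 and 2708, and 763 over all months.

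**Figure D1:**
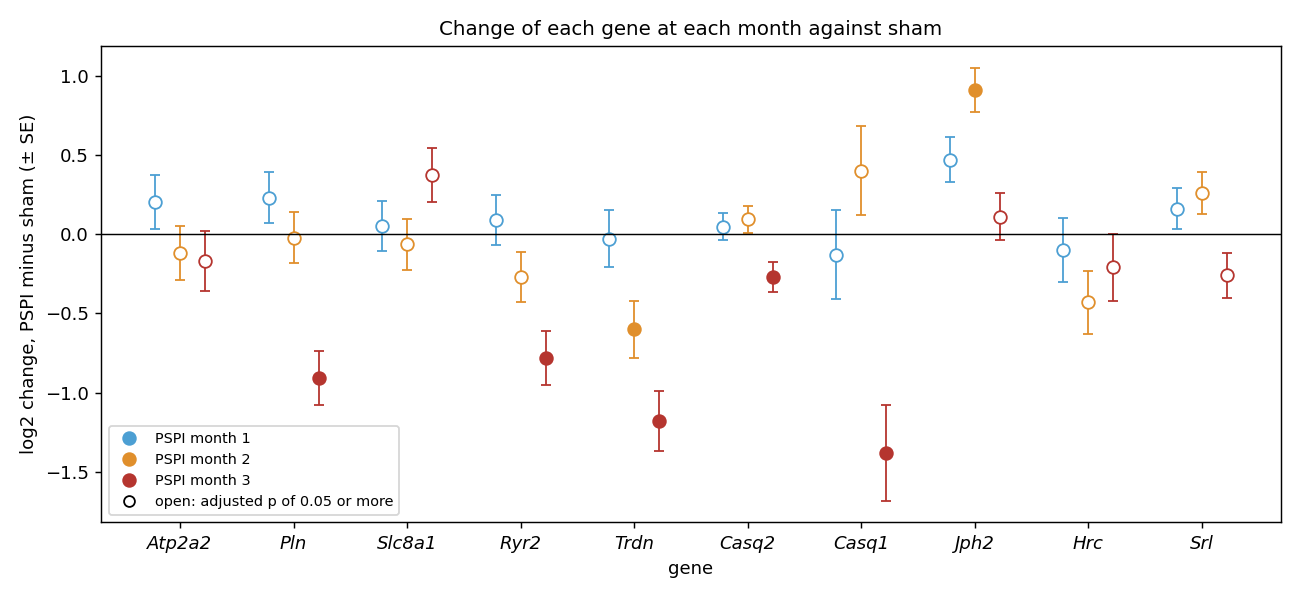
Log2 change of each gene against sham at month 1 (blue), month 2 (orange) and month 3 (red), with bars of 1 standard error; filled points have a limma adjusted p under 0.05. Filled points below 0 at month 3 are Pln, Ryr2, Trdn, Casq2 and Casq1, and at month 2 only Trdn (lower) and Jph2 (higher) are filled.

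Atp2a2 encodes SERCA2, the pump that refills the reticulum in heart. Its level ran from 3.86 to 4.78 in sham (median 4.24), was 4.23, 4.26, 4.93, 4.89 and 4.09 at month 1, 4.15, 3.89, 4.31, 4.62 and 3.87 at month 2, and 3.87, 4.43, 4.39 and 3.77 at month 3. The groups overlapped throughout, and samples 3 and 4 of month 1 were the highest of all 24 arrays. Both were on slide 2, which carried no sham, as was sample 2, which lay within the sham range. The change at month 3 was -0.17 ± 0.19 (limma adjusted p = 0.494), with an unadjusted 95% interval from -0.56 to 0.22. The second probe of Atp2a2 gave -0.38 ± 0.20 at month 3 (adjusted p = 0.132 in a fit of all kept probes). That probe was lower at month 3 than at month 1 by -0.61 ± 0.23 (adjusted p = 0.0467 in the fit of all kept probes), where the first gave -0.36 ± 0.21 (adjusted p = 0.199). The second probe was listed for a RefSeq transcript for which the first was not listed. The probes may thus cover different transcripts of the gene, which was not tested.

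Pln encodes phospholamban, the small membrane protein that holds the pump back until it is phosphorylated. Pln ran from 3.34 to 3.88 in sham (median 3.56), was 3.59, 3.58, 3.95, 4.26 and 3.44 at month 1, and 3.63, 3.42, 3.62, 3.66 and 3.22 at month 2. At month 3 it was 3.31, 2.47, 2.72 and 1.99. All 4 month 3 arrays lay below every sham, sample 1 only just. At month 1 samples 3 and 4 (3.95 and 4.26) lay above every sham, the other 3 within its range. Samples 2, 3 and 4 of month 1 were on slide 2, which carried no sham. At month 1, no member and 0.65% of all genes had every array outside the sham range. A gene lay wholly below sham in this way at month 3 for 6.66% of all genes tested. Pln fell by 0.91 ± 0.17 on the log2 scale at month 3, or 1.88-fold (limma adjusted p = 0.000293), and changed by 0.23 ± 0.16 at month 1 (adjusted p = 0.594) and -0.023 ± 0.16 at month 2 (adjusted p = 0.94). The month 3 change was -0.93 with near-coincident arrays averaged (adjusted p = 0.00932). Within slide 3 alone, 3 arrays of month 3 against 3 shams, it was -1.04 (limma adjusted p = 0.0266).

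**Figure D2:**
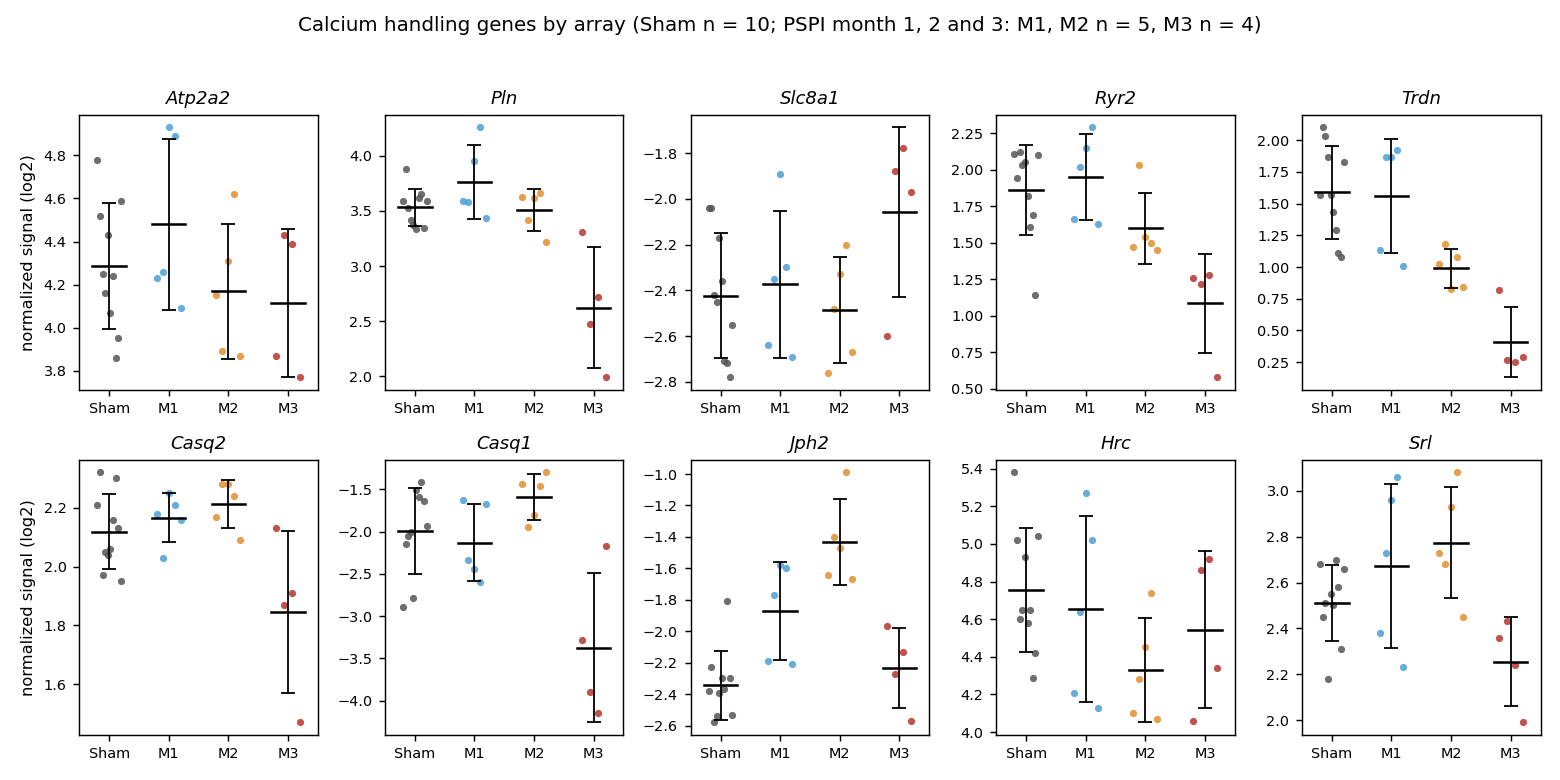
Normalized log2 signal of each gene on each array (points) in sham, month 1 (M1), month 2 (M2) and month 3 (M3), with the group mean and SD (bars); the y axis differs between panels. For Pln and Trdn all 4 month 3 points lie below every sham, and for Jph2 all 5 month 2 points lie above every sham.

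Phospholamban acts on the pump, so the log2 ratio of Pln to Atp2a2 was taken within each array, where scaling between arrays cancels. The absolute ratio has no meaning across probes, but its difference between groups does. The ratio averaged -0.75 ± 0.28 (SD, n = 10) in sham, -0.72 ± 0.15 (n = 5) at month 1, -0.65 ± 0.19 (n = 5) at month 2 and -1.49 ± 0.63 (n = 4) at month 3. It was lower at month 3 than in sham by a difference of -0.74, a ratio 1.67-fold lower (two-sided exact permutation test over arrays, p = 0.011, adjusted p = 0.033 over 6 such tests). With the second Atp2a2 probe the difference was -0.53 (exact permutation p = 0.00599). With near-coincident arrays averaged (3 against 6) the differences were -0.70 (exact permutation p = 0.0714) and -0.53 (exact permutation p = 0.0476) for the first and second probe, and 0.0119 was the smallest p possible. Month 3 sample 1 lay within the sham range of the ratio, at -0.56, while the other 3 lay at -1.96, -1.67 and -1.78, below the lowest sham at -1.19. Sample 1 was the only month 3 array on slide 2, and the other 3 were on slide 3. The split within month 3 therefore cannot be told apart from slide. Within slide 3 alone (3 against 3) the differences were -0.92 and -0.64 for the first and second probe (exact permutation p = 0.1 at both, the smallest possible). This ratio was chosen after the values of both genes were known.

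**Figure D3:**
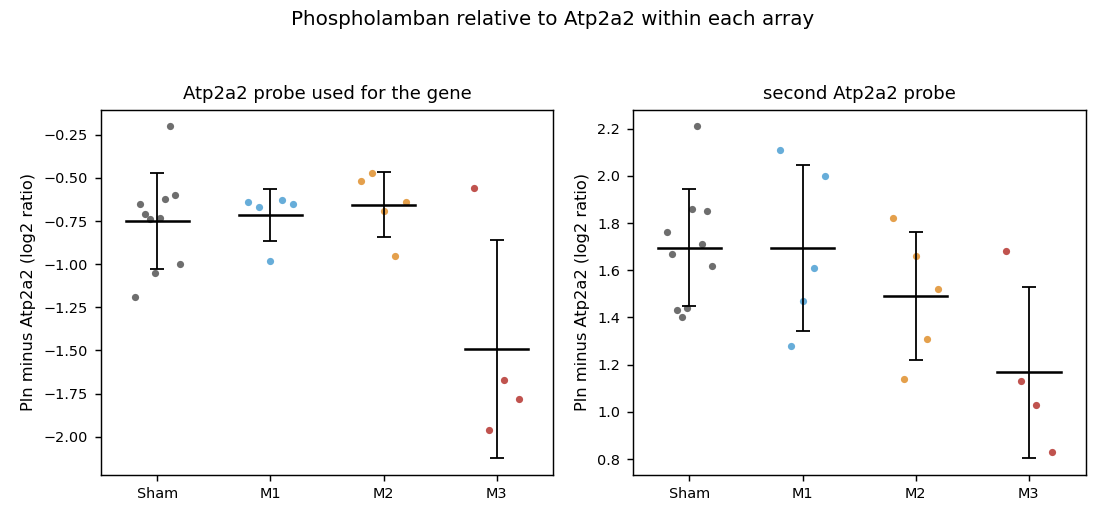
Log2 ratio of Pln to Atp2a2 within each array (points), with the probe used for Atp2a2 (left) and the second Atp2a2 probe (right), and the group mean and SD (bars). At month 3 the mean ratio was -1.49 (left) and 1.17 (right), against -0.75 and 1.69 in sham.

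Of the other pump genes, Atp2a1, the pump isoform typical of fast skeletal muscle, lay between -0.41 and 0.30 in sham and at -0.48, -0.62, -0.53 and -1.16 at month 3, below every sham. Atp2a1 fell at month 3 by 0.72 ± 0.21 (limma adjusted p = 0.00955), after changes of 0.45 ± 0.19 at month 1 (adjusted p = 0.349) and 0.39 ± 0.19 at month 2 (adjusted p = 0.18). Atp2a3, the isoform of platelets, endothelium and other non-muscle cells, was higher at month 2 by 0.62 ± 0.14 (adjusted p = 0.00865) and at month 3 by 0.67 ± 0.15 (adjusted p = 0.00204). The endothelial markers ranged in summed level from 1.36 to 1.97 in sham and from 1.84 to 2.46 at month 3, and their part in the Atp2a3 result was not tested. Averaging near-coincident arrays kept the month 3 calls of both (adjusted p = 0.0443 for Atp2a1 and 0.0212 for Atp2a3) and lost that of Atp2a3 at month 2 (0.61, adjusted p = 0.0966). Of the 10 skeletal muscle markers, Atp2a1 among them, the myosin genes Myh1, Myh2 and Myh4 and the actinin gene Actn3 were well above background on no array. The summed level of the 10 ran from -0.21 to 0.57 in sham and from -0.68 to -0.12 at month 3. Atp2a1 is part of this sum, so the sum is not separate from the Atp2a1 values. The other tested ones, Pvalb and Tnni2, changed by 0.78 ± 0.37 and -0.27 ± 0.32 at month 3 and did not pass (adjusted p = 0.0968 and 0.519). The part of skeletal muscle in the values of Atp2a1 and, below, of Casq1 was not tested.

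Sln encodes sarcolipin, the counterpart of phospholamban that restrains the pump mostly in atrium and skeletal muscle. It varied more than any of the 10 genes, from -5.48 to 5.24 across the shams. Sham 3, 4 and 10, which nearly coincided, stood at 4.92, 5.04 and 5.24, and the other 7 shams at -1.07 or lower. Sln was 2.72, 4.03, 1.41, -2.33 and 2.72 at month 1, 2.27, -0.75, 1.95, -1.73 and 2.36 at month 2, and -4.63, -4.72, -6.12 and -2.91 at month 3. No month differed from sham in the test (adjusted p = 0.518, 0.463 and 0.147 with limma), while month 3 was lower than month 1 by -6.30 ± 2.1 (adjusted p = 0.029), a call lost with near-coincident arrays averaged (-5.77, adjusted p = 0.0562). Of 5 atrial markers, Sln among them, 4 were tested and none passed against sham at any month. For month 3 against month 1, 3 of the 4 were called lower (median change of the 4 -5.43), beside 16.6% of all genes. The atrial light chain Myl7 was 3.48 to 3.53 on Sham 3, 4 and 10, -3.59 or lower on the other shams, and -7.27 to -5.91 at month 3. Nppa, the atrial natriuretic peptide, which loaded ventricles also make, was 5.73 to 6.24 on Sham 3, 4 and 10. It was also 4.49 to 4.93 on Sham 6 to 9 and 4.92 to 5.70 at month 3, where Sln and Myl7 were low. The summed level of the 5 ran from 0.22 to 7.61 in sham and from 4.93 to 5.73 at month 3. Whether atrial tissue in the samples had a part in the Sln values was not tested.

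The sodium-calcium exchanger, encoded by Slc8a1, moves calcium out across the cell membrane. Its level was -2.78 to -2.04 in sham (median -2.44), -2.64, -2.35, -1.89, -2.30 and -2.69 at month 1, -2.76, -2.48, -2.33, -2.20 and -2.67 at month 2, and -2.60, -1.88, -1.78 and -1.97 at month 3. Of the 4 month 3 arrays 3 lay above every sham and sample 1 within the sham range, while 5.74% of all genes had all 4 above. The change at month 3 was 0.37 ± 0.17 and was not called (limma adjusted p = 0.0857). It crossed the threshold when background was corrected by normexp (0.40, adjusted p = 0.0466) or the deposited table was used (0.40, adjusted p = 0.044), and not with near-coincident arrays averaged (0.28, adjusted p = 0.345). Without sample 1 of month 3 it was 0.55 (adjusted p = 0.0118). The second Slc8a1 probe, which was not well above background on 1 month 3 array, gave 0.48 ± 0.19, 0.53 ± 0.19 and 0.25 ± 0.21 at months 1 to 3 (adjusted p = 0.309, 0.0674 and 0.352 in the fit of all kept probes) and 0.42 ± 0.14 over all months (adjusted p = 0.0398).

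Ryr2 encodes the cardiac ryanodine receptor, the channel that releases stored calcium. It ran from 1.14 to 2.12 in sham (median 1.99), and was 1.66, 2.02, 2.15, 2.29 and 1.63 at month 1, 1.47, 2.03, 1.54, 1.50 and 1.45 at month 2, and 1.26, 1.22, 1.28 and 0.58 at month 3. The month 3 arrays overlapped the shams, with 1 of 4 below every sham. The lowest sham was Sham 9, at 1.14, and the next lowest stood at 1.61. Ryr2 fell at month 3 by 0.78 ± 0.17, or 1.71-fold (limma adjusted p = 0.00137). At month 2 the change was -0.27 ± 0.16 (adjusted p = 0.265). The month 3 change was -0.80 with near-coincident arrays averaged (adjusted p = 0.0106), -0.81 with slide as a block (adjusted p = 0.00454), and -0.74 within slide 3 alone (adjusted p = 0.153). Of the other ryanodine receptors, Ryr1, the skeletal type, was well above background on no array. Ryr3 was tested and changed by 0.0046 ± 0.38 at month 3 (adjusted p = 0.993).

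Triadin, encoded by Trdn, tethers calsequestrin to the ryanodine receptor and is made as a short form, the main one in heart, and long forms best known from skeletal muscle. With the probe used for the gene, Trdn ran from 1.08 to 2.10 in sham (median 1.57), and was 1.13, 1.87, 1.87, 1.92 and 1.01 at month 1. It was 1.02, 1.18, 0.83, 1.08 and 0.84 at month 2, and 0.82, 0.27, 0.25 and 0.29 at month 3. At month 2, 4 of 5 arrays lay below every sham, or level with the lowest to 2 decimals, and at month 3 all 4 did, with samples 2, 3 and 4 far below. Trdn fell at month 2 by 0.60 ± 0.18, or 1.51-fold (limma adjusted p = 0.0296), and at month 3 by 1.18 ± 0.19, or 2.26-fold (adjusted p = 9.02e-05). Over all months it fell by 0.60 ± 0.14 (adjusted p = 0.00365). With the mean of the 3 Trdn probes in its place the changes were -0.20 at month 2 (adjusted p = 0.272), -0.45 at month 3 (adjusted p = 0.00817) and -0.18 over all months (adjusted p = 0.15). Averaging near-coincident arrays gave changes of -0.55 at month 2 (adjusted p = 0.158), -1.09 at month 3 (adjusted p = 0.00444) and -0.50 over all months (adjusted p = 0.0736), so the call was kept at month 3. The month 2 call was also lost without Sham 3 or without sample 1, 3, 4 or 5 of month 2 (-0.62 to -0.55, adjusted p from 0.0505 to 0.0771). Within slide 3 alone the month 3 change was -1.22 (adjusted p = 0.0173).

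The other Trdn probes did not move in step. The shared probe ran from -0.46 to 0.10 in sham, was between -0.33 and -0.22 at month 2, and -0.77, -0.092, -0.15 and -0.53 at month 3. Its change was -0.12 ± 0.11 at month 2 and -0.22 ± 0.12 at month 3 (adjusted p = 0.503 and 0.137 in the fit of all kept probes). The log2 difference between the gene's probe and the shared probe within each array was 1.76 ± 0.36 (SD, n = 10) in sham, 1.72 ± 0.49 (n = 5) at month 1, 1.28 ± 0.21 (n = 5) at month 2 and 0.79 ± 0.57 (n = 4) at month 3. Against sham this was a difference of -0.48 at month 2 and of -0.96, or 1.95-fold, at month 3 (two-sided exact permutation p = 0.0183 and 0.005, adjusted p = 0.0366 and 0.03 over 6 tests). Averaged over near-coincident arrays it was -0.44 and -0.81 (exact permutation p = 0.0476 at both), and without sample 5 of month 2 it was -0.43 there (exact permutation p = 0.0509). Within slide 3 alone (3 against 3) it was -0.99 at month 3 (exact permutation p = 0.1, the smallest possible). The far 3' probe (chr10:33194264-33194323 of mm9, in NM_029726) was well above background on 10 of 10 shams, 5 of 5, 3 of 5 and 2 of 4 arrays at months 1 to 3. It changed by 0.036 ± 0.27 at month 3 (adjusted p = 0.928 in the fit of all kept probes). The probe difference was chosen for testing after these values were known, and a difference between probes shows unequal change, not which transcript changed.

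**Figure D4:**
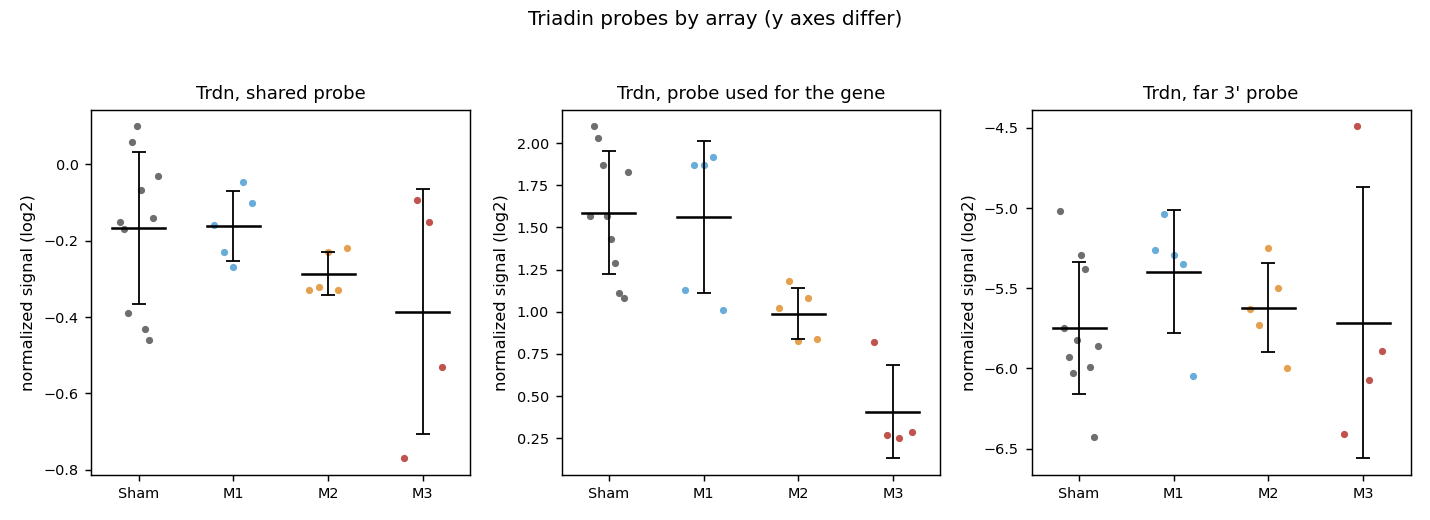
Normalized log2 signal of the 3 Trdn probes on each array (points), with group mean and SD (bars); the y axes differ. The probe used for the gene steps down at months 2 and 3 (means 0.99 and 0.41, sham 1.59), while the shared probe goes from -0.17 in sham to -0.38 at month 3 and the far probe goes from -5.75 to -5.71.

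Casq2 encodes cardiac calsequestrin, the main calcium buffer of the reticulum in heart. It varied little in sham, from 1.95 to 2.32 (median 2.10), and was 2.18, 2.03, 2.25, 2.21 and 2.16 at month 1, 2.17, 2.28, 2.28, 2.24 and 2.09 at month 2 and 2.13, 1.87, 1.91 and 1.47 at month 3. Of the month 3 arrays 3 lay below every sham, and sample 4 was lowest. The fall at month 3 was 0.27 ± 0.092, or 1.21-fold (limma adjusted p = 0.0238). Without sample 4 of month 3 it was -0.15 and the call was lost (adjusted p = 0.182), as it was with near-coincident arrays averaged (-0.32, adjusted p = 0.0676) or slide as a block (-0.23, adjusted p = 0.103).

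Casq1 encodes the calsequestrin of fast skeletal muscle, which heart also makes at a lower level. It lay between -2.89 and -1.41 in sham (median -1.97), at -1.62, -2.33, -2.44, -2.60 and -1.67 at month 1, at -1.44, -1.95, -1.80, -1.46 and -1.30 at month 2, and at -3.28, -3.90, -4.15 and -2.17 at month 3. Samples 1, 2 and 3 of month 3 lay below every sham and sample 4 within the sham range. Casq1 fell at month 3 by 1.38 ± 0.30, or 2.60-fold (limma adjusted p = 0.00121). At month 2 the change was 0.40 ± 0.28 (adjusted p = 0.339). With near-coincident arrays averaged the month 3 change was -1.24 (adjusted p = 0.023), with slide as a block -1.13 (adjusted p = 0.0232) and within slide 3 alone -1.29 (adjusted p = 0.155).

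Jph2 encodes junctophilin 2, which ties the reticulum to the cell membrane so that entry and release channels face each other. It was -2.58 to -1.81 in sham (median -2.38), -2.19, -1.77, -1.58, -1.60 and -2.21 at month 1, -1.64, -1.40, -1.47, -0.99 and -1.67 at month 2, and -1.97, -2.27, -2.13 and -2.57 at month 3. All 5 month 2 arrays lay above every sham, which held for 1.49% of all genes tested, and the month 3 arrays lay within the sham range. Of the month 2 arrays 4 were on slide 2, which carried no sham, and sample 5, on slide 3, stood at -1.67. At month 1 the slide 2 arrays (-1.77, -1.58 and -1.60) lay above every sham. The others, at -2.19 on slide 1 and -2.21 on slide 3, lay within the sham range. Jph2 was higher at month 2 by 0.91 ± 0.14, or 1.88-fold (limma adjusted p = 0.000978), and over all months by 0.50 ± 0.10 (adjusted p = 0.00224). At month 1 the change was 0.47 ± 0.14 (adjusted p = 0.16) and at month 3 it was 0.11 ± 0.15 (adjusted p = 0.595). Averaging near-coincident arrays made the month 2 change 0.89 (adjusted p = 0.0533) and the change over all months 0.46 (adjusted p = 0.0518). With slide as a block they were 0.60 (adjusted p = 0.0353) and 0.29 (adjusted p = 0.13). The related Jph1, best known from skeletal muscle, was well above background on 8 of 10 shams, 3 of 5, 2 of 5 and 1 of 4 arrays at months 1 to 3, and was not tested.

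Hrc and Srl encode luminal proteins, the histidine-rich calcium-binding protein and sarcalumenin. Hrc ran from 4.29 to 5.38 in sham (median 4.65) and was 4.21, 4.64, 5.27, 5.02 and 4.13 at month 1, 4.10, 4.28, 4.45, 4.74 and 4.07 at month 2, and 4.06, 4.86, 4.92 and 4.34 at month 3. Below every sham lay 2 of 5 arrays at month 1, 3 of 5 at month 2 and 1 of 4 at month 3. Its changes were -0.43 ± 0.20 at month 2 and -0.21 ± 0.21 at month 3 (limma adjusted p = 0.142 and 0.437). Srl ran from 2.18 to 2.70 in sham (median 2.53) and was 2.38, 2.73, 2.96, 3.06 and 2.23 at month 1, 2.73, 2.68, 2.93, 3.08 and 2.45 at month 2, and 2.36, 2.43, 2.24 and 1.99 at month 3. At months 1 and 2, 3 of 5 arrays each lay above every sham, and at month 3, 1 of 4 lay below. Those above every sham were all on slide 2, which carried no sham. Sample 2 of month 2, also on slide 2, lay within the sham range. On slide 3 the month 1 array stood at 2.23 and the month 2 array at 2.45. The changes of Srl were 0.26 ± 0.13 at month 2 and -0.26 ± 0.14 at month 3 (adjusted p = 0.164 and 0.144). With slide as a block the month 3 change passed, at -0.37 (adjusted p = 0.0445).

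The months were also set against each other, with the spread estimated over all 24 arrays, shams included. Month 2 differed from month 1 in 0 of 10 members, beside 0.016% of all genes (1 gene higher and 1 lower, 0.00802% each), and the member changes of smallest p were Trdn at -0.57 ± 0.21 and Jph2 at 0.44 ± 0.16 (limma adjusted p = 0.278 for both). Casq1 changed by 0.54 ± 0.32 (adjusted p = 0.489). The labels pair no samples, but in this comparison same-numbered samples deviated together, and numbers 2 to 5 also shared a slide. With the replicate numbers as a block 63 genes were called by limma, again 0 of them members (adjusted p = 0.0743 for Jph2 and 0.107 for Trdn). Month 3 was lower than month 2 for 5 of 10 members and higher for none, beside 18.7% of all genes (8.98% higher and 9.74% lower). These were Casq1 (-1.79 ± 0.34, adjusted p = 0.000932), Pln (-0.89 ± 0.19, adjusted p = 0.00259), Jph2 (-0.80 ± 0.17, adjusted p = 0.00199), Srl (-0.52 ± 0.16, adjusted p = 0.0225) and Casq2 (-0.37 ± 0.10, adjusted p = 0.0168). Trdn and Ryr2 changed by -0.58 ± 0.22 and -0.51 ± 0.20 there (adjusted p = 0.0685 and 0.0704). Averaging near-coincident arrays kept Casq1, Pln, Jph2 and Srl (adjusted p of 0.026, 0.0326, 0.0164 and 0.0371) and lost Casq2 (0.0741). Without sample 4 of month 3 Casq2 was -0.24 (adjusted p = 0.0915) and Srl -0.43 (adjusted p = 0.0893), and Srl was also lost without sample 3 of month 3 or sample 3 or 4 of month 2 (adjusted p from 0.0534 to 0.059). Without sample 1 of month 3 Trdn passed (-0.72, adjusted p = 0.0237), as did Ryr2 (-0.57, adjusted p = 0.0489). Slide as a block lost Srl (-0.29, adjusted p = 0.232) and Casq2 (-0.27, adjusted p = 0.138).

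Month 3 was lower than month 1 for 6 of 10 members and higher for none, beside 28.5% of all genes (11.9% higher and 16.6% lower). Casq1 was lower by -1.25 ± 0.34 (limma adjusted p = 0.00962), Trdn by -1.15 ± 0.22 (adjusted p = 0.000663), Pln by -1.14 ± 0.19 (adjusted p = 0.000205) and Ryr2 by -0.87 ± 0.20 (adjusted p = 0.00245). Srl and Casq2 differed by -0.41 ± 0.16 and -0.32 ± 0.10 (adjusted p = 0.0496 and 0.0264). Once near-coincident arrays were averaged, the values of Casq1 and Casq2 were -0.91 and -0.33 and no longer passed (adjusted p = 0.105 and 0.0858). The other 4 passed, with adjusted p from 0.00429 to 0.0313. Slide as a block gave -0.27 for Srl and -0.23 for Casq2 (adjusted p = 0.175 and 0.13). Casq1 was lost without sample 3 of month 3 (-0.99, adjusted p = 0.0526), Casq2 without sample 4 of month 3 (-0.19, adjusted p = 0.138) or sample 3 or 4 of month 1 (adjusted p = 0.0576 and 0.0527), and Srl without any 1 of 18 arrays (adjusted p up to 0.16). With the spread taken from the groups compared alone, Casq1, Srl and Casq2 no longer passed against month 1 (adjusted p = 0.0595, 0.157 and 0.134). Against month 2, Srl and Casq2 no longer passed (adjusted p = 0.0551 and 0.107) and Trdn did (adjusted p = 0.0368). The comparisons with month 3 share its 4 arrays, so they are not separate evidence.

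Of 46 other genes of calcium handling, 42 were tested. None passed at month 1, beside 0% of all genes. At month 2, 6 passed (2 higher and 4 lower), beside 14.5% of all genes. At month 3, 14 passed (5 higher and 9 lower), beside 38.9% of all genes. The median change of the 42 was 0.013, -0.033 and -0.02 at months 1 to 3, close to that of all genes. At month 2 the smallest p-values were those of Atp2a3 (given above), Dhrs7c, an enzyme of the reticulum membrane (-1.15 ± 0.27, limma adjusted p = 0.0089), Itpr2, an inositol trisphosphate receptor (-0.73 ± 0.20, adjusted p = 0.0189), and Cacna2d1, a subunit of voltage-gated calcium channels (-0.42 ± 0.12, adjusted p = 0.0225). At month 3 they were Camk2g, a calmodulin-dependent kinase (-0.71 ± 0.099, adjusted p = 1.45e-05), Atp2b4, a calcium pump of the cell membrane (1.16 ± 0.19, adjusted p = 0.000105), Cacnb2, the calcium channel beta subunit (-0.79 ± 0.15, adjusted p = 0.000406), and again Atp2a3. With near-coincident arrays averaged 0 passed at month 2 and 8 at month 3 (2 higher and 6 lower), Camk2g, Atp2b4, Cacnb2, Atp2a3 and Atp2a1 among them. Of all 12465 genes, 7 and 2708 passed at these months with that averaging.

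Over all months 8 of the 42 passed, 2 higher and 6 lower, beside 24.4% of all genes, with a median of -0.035. Averaging near-coincident arrays left 2 of these calls, Atp2a3 higher and Camk2g lower, beside 763 of all 12465 genes. The smallest p-values were those of Camk2g (-0.41 ± 0.069, limma adjusted p = 0.000405), Atp2a3 (0.55 ± 0.11, adjusted p = 0.00149), Dhrs7c (-0.91 ± 0.20, adjusted p = 0.00336) and Cacna2d1 (-0.30 ± 0.091, adjusted p = 0.0197). Between months, 0 passed for month 2 against month 1, 8 for month 3 against month 2 (3 higher and 5 lower) and 9 for month 3 against month 1 (4 higher and 5 lower). The shares of all genes were 0.016%, 18.7% and 28.5%. With near-coincident arrays averaged the counts of the 42 became 0, 3 (1 higher and 2 lower) and 7 (2 higher and 5 lower). Of all 12465 genes, 0, 995 and 2513 passed in that way. Atp2b4 was higher at month 3 than at month 2 by 1.05 ± 0.22 and than at month 1 by 1.20 ± 0.22 (adjusted p = 0.0019 and 0.000413). Atp2a1 was lower by -1.11 ± 0.24 and -1.17 ± 0.24 (adjusted p = 0.00238 and 0.00111), and Cacnb2 by -0.80 ± 0.17 and -0.92 ± 0.17 (adjusted p = 0.00262 and 0.00058). Hax1, a phospholamban-binding protein, was lower by -0.46 ± 0.11 and -0.49 ± 0.11 (adjusted p = 0.00512 and 0.00258).

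The level of Myh7 crossed the labels of sham and month 1. Within sham, Trdn, Ryr2 and Casq1 lay in separate ranges on arrays of lower and higher Myh7. Trdn was 1.57 to 2.10 on the 9 arrays of lower Myh7 and 0.25 to 1.43 on the 15 of higher Myh7, with no overlap. Within sham alone it was 1.57 to 2.10 on 6 arrays and 1.08 to 1.43 on 4, and within month 1 it was 1.87 to 1.92 on 3 arrays and 1.01 to 1.13 on 2. Ryr2 within sham was 1.94 to 2.12 and 1.14 to 1.82 on the same sets. Casq1 ran the other way within sham, -2.89 to -1.93 on the 6 and -1.64 to -1.41 on the 4. All 4 month 3 arrays were at the higher Myh7 level, and Trdn there (0.25 to 0.82) was also below the 4 shams of that level. All month 2 arrays were at the higher level too, and Trdn there (0.83 to 1.18) overlapped those 4 shams, as Ryr2 did at month 3 (0.58 to 1.28). Pln was 3.34 to 3.65 on those 4 shams, overlapping the 3.37 to 3.88 of the other 6. These ranges are read off after the fact and were not tested, and the share of all genes parted in this way was not counted.

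**Figure D5:**
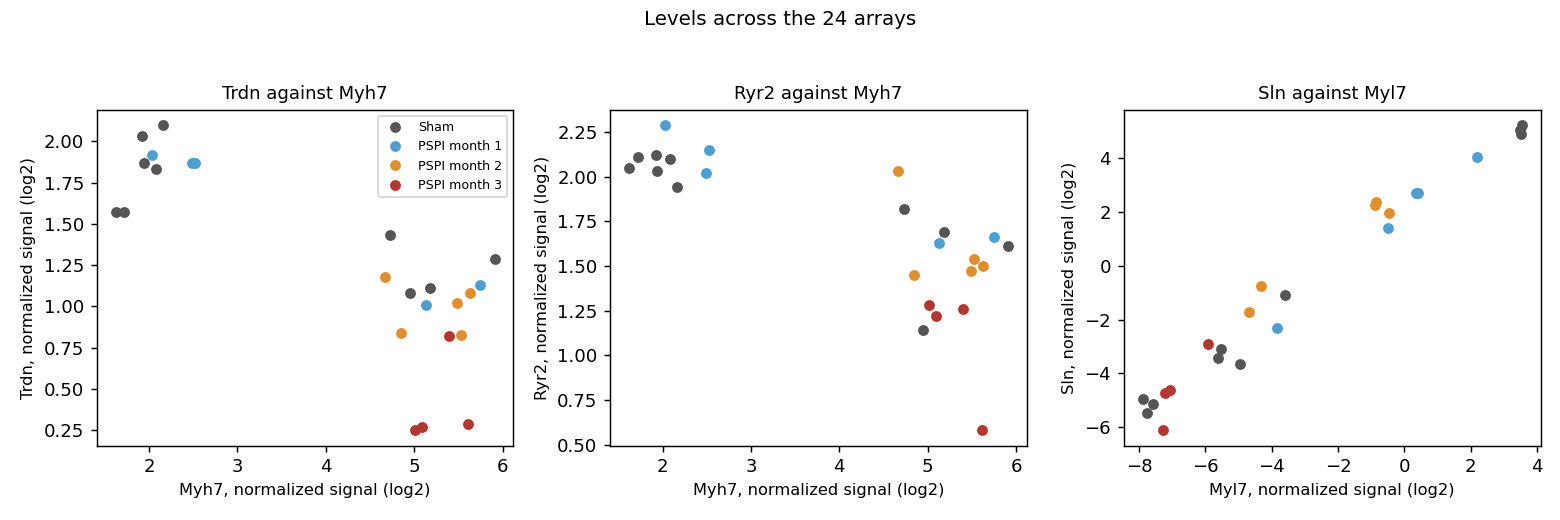
Normalized log2 signals on each of the 24 arrays, coloured by group: Trdn against Myh7 (left), Ryr2 against Myh7 (middle) and Sln against the atrial gene Myl7 (right). The arrays fall into separate sets at low (1.62 to 2.52) and high (4.67 to 5.91) Myh7, with Trdn below 1.43 or at that value in the high set.

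Genes whose pattern was most like that of Atp2a2 and Casq1 were found by Pearson's r over the 24 arrays, members left out, as a description without a test. The arrays share groups, slides and near-coincident samples. The highest r with Atp2a2 were those of Atp5j (0.97), Uqcrc2, Ndufv1, Atp5d and Mpc2 (0.93 each), genes of the mitochondrial ATP synthase, respiratory chain and pyruvate carrier. The lowest were those of Wdr47 (-0.90), Foxn2 (-0.89), Zfp593 (-0.88), Fbxw17 (-0.88) and Slc30a4 (-0.87). With Casq1 the highest were Rpp38 (0.85), Disp1, Slbp and H2ax (0.84 each) and Jam3 (0.83). The lowest were Nme5 (-0.90), the mitochondrial coactivator gene Ppargc1a (-0.87), the nuclear RNA Neat1 (-0.86), Akap8l (-0.85) and Fam183b (-0.85).

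Promoter sequences of 7 members were in the RefSeq table (GRCm38.p6): Pln, Casq2, Casq1, Jph2, Hrc, Ryr2 and Slc8a1. Atp2a2, Srl and Trdn had no entry. The 250 bases before each start were searched on both strands for 6 motifs known from muscle or general promoters. These were the GATA motif (AGATAA), the CCAAT box (those letters), the TATA box (TATAAA), the MCAT motif (CATTCC), and the MEF2 and CArG consensus motifs by name. Of the members that fell at month 3, Pln and Casq2 held matches. They are shown by the 150 bases before the start, with matches in capitals. Casq1 and Ryr2, which also fell at month 3, had no match of any of the 6 motifs. Pln (chr10:53337536-53337685, plus strand) had CCAAT 64 bases before the start, and Casq2 (chr3:102086265-102086414, plus strand) had a MEF2 match 69 bases before it.
Pln: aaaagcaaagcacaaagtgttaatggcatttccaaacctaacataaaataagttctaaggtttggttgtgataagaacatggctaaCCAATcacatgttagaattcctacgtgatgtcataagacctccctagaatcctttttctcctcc
Casq2: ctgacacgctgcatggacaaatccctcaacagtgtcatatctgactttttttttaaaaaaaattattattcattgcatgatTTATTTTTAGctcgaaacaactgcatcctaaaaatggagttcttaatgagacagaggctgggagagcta
Farther up, Pln also had TATAAA at 219 and AGATAA, on the other strand, at 183 bases before the start. A MEF2 match was held by 2.92% of all 32851 promoters in the table and CCAAT by 33.8%, TATAAA by 12.4% and AGATAA by 9.99%. CCAAT was also found for Jph2 and Hrc, and AGATAA for Slc8a1. CArG (1.47% of promoters) and CATTCC (12.6%) were found for none of the 7, and no match overlapped another. These matches describe the letters and are not evidence of binding.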

How the data were processed

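Each file held 1 array's scanner output: intensity of 62976 spots, read with Agilent Feature Extraction 10.7.3.1 per the submitters' processing notes, on mm9 coordinates per the file headers. The authors' deposited value table equals the net signal for all 62976 spots (relative tolerance 0.001), so it is neither background-subtracted nor scaled. Here the processed signal, which the deposited files give as background-corrected intensity, was taken as log2 minus each array's 75th percentile over probes well above background on all 24 arrays. Control spots were dropped, as were spots the scanner marked as outliers (143 to 290 an array). Of 55681 probes, 36.1% to 56.1% per array were well above background, and the number of arrays limits the precision. The 56.1% was that of sample 4 of month 3, beside 36.1% to 41.7% on the other month 3 arrays. Sample 4 was also the lowest of all 24 arrays for Pln, Ryr2 and Casq2. Without it the limma calls of Pln and Ryr2 at month 3 were kept (adjusted p = 0.00283 and 0.0126) and that of Casq2 was lost (adjusted p = 0.182). A probe stayed in where all arrays of some group had it well above background, which held for 21030 probes. Genes were named by accession (26582 probes), current symbol (2602), older symbol (492) or the file's own name (1421), and 24584 stayed unnamed. The kept probe of highest mean stood for each of 12465 genes.

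Group means were fitted with limma 3.58.1 in R 4.3.3 (lmFit, eBayes, no covariates, all 24 arrays), with Benjamini-Hochberg adjustment over all genes and a threshold of 0.05, two-sided. The procedure was tested on simulated data. Within-array ratios were tested by exact permutation over arrays. Arrays were called near-coincident where their median absolute log2 difference over the 300 most variable genes was under 0.3 (8 pairs, at most 0.279, against at least 0.337 for all other pairs), a measure set to recover pairs that an earlier analysis of these data named. Between months 1 and 2, deviations of same-numbered samples correlated over 0.1 in all 5 pairs (0.191 to 0.522). The labels do not pair them, and sample 3 of month 1 correlated better with a month 2 sample of another number. Numbers 2 to 5 also shared a slide, so pairing cannot be told apart from slide. In no other pair of groups did all same-numbered samples correlate over 0.1 (-0.445 to 0.323).

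The members, the gene lists and the markers were chosen with earlier results of these data known. The text names all 10 members, up to 4 called genes with the smallest p per comparison from the list of 46 other calcium genes, their isoform partners, and the 5 highest and 5 lowest correlations with Atp2a2 and Casq1. Alternatives covered scaling, background, filter, probe choice, slide, array weights, near-coincident arrays, the replicate block and each array left out. Exon and UTR positions were not assigned, as no mm9 annotation was used here.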

Additional observations from a re-analysis of the deposited data

Results flagged for a closer look

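In 5 of the 40 member and group sets, 1 array stood apart from the rest of its group by Dixon's test. Chance gives about 1 in 20 only where sets and arrays are independent. These sets share the same arrays, and some arrays of a group nearly coincided. The share of all genes flagged in this way was not counted, so the 5 do not set members apart. Ryr2 stood apart in 3 groups: Sham 9 was lowest at 1.14 (nearest 1.61), sample 2 of month 2 was highest at 2.03 (nearest 1.54), and sample 4 of month 3 was lowest at 0.58 (nearest 1.22). Trdn in sample 1 of month 3 was highest at 0.82 (nearest 0.29). Jph2 in Sham 8 was highest at -1.81 (nearest -2.23).

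The PSPI groups of different months differed for 7 members in at least 1 comparison, by limma's test of the difference itself. Of all genes, 18.7% differed between month 3 and month 2 and 28.5% between month 3 and month 1. The share of all genes that differed in at least 1 comparison was not counted, so the 7 do not set members apart. The shams carry no month, and the months lay unevenly on the slides. A changing effect of PSPI therefore cannot be told apart from age or slide. Between month 3 and month 2 the differences were -1.79 for Casq1, -0.89 for Pln, -0.80 for Jph2, -0.52 for Srl and -0.37 for Casq2. Between month 3 and month 1 they were -1.25 for Casq1, -1.15 for Trdn, -1.14 for Pln, -0.87 for Ryr2, -0.41 for Srl and -0.32 for Casq2. Srl passed neither test against sham at month 2 or month 3, and its difference from month 1 was lost when any 1 of 18 of the 24 arrays was left out.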

How the results depend on the processing

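Of the changes of single members and of the ratios under other settings, 544 kept their direction and side of the threshold, 74 lost a call, 29 gained one and 12 turned direction. Members called over all months numbered 2, and 4 with quantile normalization or array weights, 1 with the mean of a gene's probes, and 0 in slide 3 alone or with near-coincident arrays averaged. Of all 12465 genes these settings called 3039, then 3234, 4951, 2914, 0 and 763 in the same order. At month 1, 0 became 1 with array weights, beside 572 of all genes. At month 2, 2 became 1 with normexp, the deposited table, no filter or the mean of probes, 0 in slide 3 alone or with near-coincident arrays averaged, and 5 with array weights. Over all genes 1804 became 1419, 1386, 833, 1736, 0, 7 and 4303 in that order of settings. At month 3, 5 became 8 with quantile normalization and 2 in slide 3 alone. Over all genes 4852 became 5519 (1647 higher and 3872 lower) and 1609 there. Month 2 against month 1 went from 0 to 3 with array weights, beside 2044 of all genes. Month 3 against month 2 went from 5 to 3 with slide as a block and 0 in slide 3 alone, beside 923 and 194 of all genes. Month 3 against month 1 went from 6 to 0 in slide 3 alone and 3 with the fit limited to the groups compared, beside 90 and 1832 of all genes. Leaving out 1 array at a time gave 2 to 4 (all months), 0 (month 1), 1 to 2 (month 2), 4 to 6 (month 3), 0 (month 2 against 1), 3 to 8 (month 3 against 2) and 4 to 7 (month 3 against 1). The all-gene counts of those fits are not given here, so the ranges do not set members apart from other genes. The cause of these shifts was not tested.

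No labels pair the samples, and outside months 1 and 2 the replicate numbers share only a number. A fit with them as a block, limited to samples whose number occurs in all groups of the comparison, called 2 members over all months, 0 at month 1, 3 at month 2 and 2 at month 3. It called 0, 1 and 0 for month 2 against 1, month 3 against 2 and month 3 against 1. Over all genes this fit called 1864, 1, 2984, 1374, 63, 339 and 319 in the same order. The same samples without the block, added after seeing the data, gave 3, 0, 5, 3, 0, 2 and 3 members, beside 2126, 112, 3849, 2983, 2, 525 and 1711 of all genes.

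Changes that turned direction were uncalled. They were Pln at month 1 (-0.034) and Srl at month 2 (-0.079) with slide as a block, Atp2a2 at month 1 (-0.23) and Srl at month 2 (-0.056) in slide 3 alone, Atp2a2 (0.029) and Hrc (0.035) at month 3 with array weights, and Jph2 at month 3 (-0.056) with the 75th percentile over all probes. The Pln to Atp2a2 ratio turned at month 1 with near-coincident arrays averaged (-0.047) and with the second Atp2a2 probe (-0.00075, and -0.20 at month 2), and ranged from -0.017 to 0.10 with 1 array left out. The Trdn probe difference at month 1 turned to 0.11 with near-coincident arrays averaged and 0.022 in the deposited table, and ranged from -0.14 to 0.12 with 1 array left out. These checks on the ratios were chosen after seeing the data.

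The median change of all genes at month 3 was -0.038, and it moved to -0.20 when all probes set the percentile, -0.13 under quantile normalization, 0.11 for the deposited values and 0.27 once dim probes were kept. Genes called at month 3 numbered 4852, and 2708 with near-coincident arrays averaged, 1609 in slide 3 alone and 1374 with the replicate block. At month 2 they numbered 1804, and 7 with near-coincident arrays averaged, 833 without the filter, 4303 with array weights, 2984 with the replicate block and 0 in slide 3 alone (710 at an unadjusted p under 0.05). At month 1, 572 were called with array weights. Over all months, 3039 became 763 with near-coincident arrays averaged, 4951 with array weights, 1864 with the replicate block, 1998 with slide as a block and 0 in slide 3 alone (1638 at an unadjusted p under 0.05). Month 2 against month 1 called 2, and 63 with the replicate block and 2044 with array weights. Month 3 called 2333 against month 2 and 3556 against month 1. These became 1162 and 1832 with only the groups compared, 1292 and 2265 with normexp, 923 and 2250 with slide as a block, 339 and 319 with the replicate block, 194 and 90 in slide 3 alone, and 5196 and 5747 with array weights. Averaging near-coincident arrays left 995 against month 2. The far 3' probe of Trdn and the second of Slc8a1 were not above background on every array, which limits what they show.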
